A study of Mus musculus with 6 samples.

Results

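The IGF axis and growth hormone signalling genes described here are Igf1, Igfals, Igfbp1, Igfbp2, Igfbp3, Igfbp4, Ghr, Socs2, Stat5a and Stat5b. They were taken by gene symbol from the authors' table of read counts, and all 10 were among its 17275 genes. After the filter on low counts, 9 of the 10 stood among the 12343 genes tested, and Igfbp3 did not. Adult mouse hepatocytes were sorted into Axin2-positive cells (GFP fluorescent, 3 libraries) and Axin2-negative cells (not fluorescent, 3 libraries). All mice were C57BL/6 of genotype Axin2rtTA;TetO-H2B-GFP, in which the Axin2 promoter drives a doxycycline-dependent activator of a nuclear green fluorescent histone. Doxycycline was given in the water for 7 days, non-parenchymal cells were removed before the sort, and a stranded mRNA kit was used. Age is given as postnatal day 63 in one label and as 8 weeks in another. Replicates 1, 2 and 3 stand for the sequencing index, which occurred once in each group. The labels do not say whether an index marks a mouse, so p-values measure the spread between these libraries.

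Hepatocytes are the main source of circulating IGF1, a growth factor, which they make when growth hormone binds its receptor GHR. The receptor works through the kinase JAK2 and the transcription factors STAT5A and STAT5B, which switch on Igf1, Igfals and the feedback inhibitor Socs2. In blood, IGF1 is carried by IGF binding proteins, and the acid-labile subunit encoded by Igfals stabilises its complex with IGFBP3. In rodents the pattern of growth hormone release differs between males and females and sets the sex-biased genes of the liver.

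Promoters are shown for the 3 tested members with the most negative log2 fold change in Axin2-positive against Axin2-negative cells of replicates 2 and 3 (Igfbp2, Igfals and Igf1), and for Igfbp1, known for its regulation by insulin. They are RefSeq windows (GRCm38.p6) from 250 bases before a start site to 50 bases from it, all on the plus strand. Capitals mark a motif, on either strand: TTCNNNGAA, bound by STAT factors, CTTTGAA or CTTTGAT, bound by TCF/LEF factors, or CAAAACA, part of the insulin response element.
Igfbp2, chr1:72824230-72824529: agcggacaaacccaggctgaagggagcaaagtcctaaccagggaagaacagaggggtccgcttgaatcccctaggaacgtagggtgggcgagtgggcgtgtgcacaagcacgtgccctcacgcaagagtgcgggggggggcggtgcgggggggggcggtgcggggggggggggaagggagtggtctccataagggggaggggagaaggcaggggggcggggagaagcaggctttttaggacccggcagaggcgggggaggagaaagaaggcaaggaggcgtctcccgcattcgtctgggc
Igf1, chr10:87860861-87861160: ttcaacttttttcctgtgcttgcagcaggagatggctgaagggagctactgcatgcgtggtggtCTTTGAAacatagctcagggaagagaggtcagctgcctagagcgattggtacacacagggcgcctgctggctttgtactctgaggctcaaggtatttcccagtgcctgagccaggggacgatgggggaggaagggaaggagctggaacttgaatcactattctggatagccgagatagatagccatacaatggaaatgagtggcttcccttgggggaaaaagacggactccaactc
Igfals, chr17:24877981-24878280: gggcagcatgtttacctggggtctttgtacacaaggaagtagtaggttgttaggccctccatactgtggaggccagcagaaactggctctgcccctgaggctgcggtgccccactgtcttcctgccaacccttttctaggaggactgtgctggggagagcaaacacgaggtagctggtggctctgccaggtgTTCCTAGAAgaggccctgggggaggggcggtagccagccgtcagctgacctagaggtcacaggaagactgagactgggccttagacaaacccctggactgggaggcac
Igfbp1, chr11:7197537-7197836: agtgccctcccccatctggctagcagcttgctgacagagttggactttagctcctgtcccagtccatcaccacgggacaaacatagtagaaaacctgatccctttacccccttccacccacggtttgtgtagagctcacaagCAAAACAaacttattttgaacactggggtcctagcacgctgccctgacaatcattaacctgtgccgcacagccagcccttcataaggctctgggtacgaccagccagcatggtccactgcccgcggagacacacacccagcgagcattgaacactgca
The Igf1 window held 1 match of CTTTGAA, which 5.14% of all 32851 RefSeq windows hold. The Igfals window held TTCCTAGAA, a match of TTCNNNGAA, found in 8.3% of windows, and a second Igfals window (chr17:24877594-24877893) held another. The Igfbp1 window held CAAAACA, found in 6.28%. The Igfbp2 window held none of the 4 motifs, and CTTTGAT, found in 3.73% of windows, matched no window of a member. In all 9 members matched 15 windows. None of the motifs overlapped another in the windows printed, and a match is a description of letters, not a bound site.

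The libraries held 75882611 to 103386648 reads assigned to genes. Axin2, whose promoter drove the sort, was at 2.40, 22.6 and 24.2 CPM (counts-per-million, TMM-scaled) in Axin2-positive replicates 1, 2 and 3, against 3.04, 3.75 and 5.75 CPM in Axin2-negative replicates 1, 2 and 3. The library labelled Axin2-positive 1 thus goes against its label. The 2 libraries of replicate 1 were also nearly alike: the median chi-square between their counts was 1.16 over 12481 genes, where counting noise alone gives 0.455 and the other 14 pairs of libraries gave 9.48 to 28.7. Of 18 pericentral genes, 16 were higher in Axin2-positive cells in both replicates 2 and 3 without overlap of the groups, while the list's median log2 difference in replicate 1 was 0.00. Among all tested genes, 19.9% were higher and 21% lower without overlap over replicates 2 and 3. Replicate 2 held 90.8 and 84.1 CPM of the Y-linked gene Ddx3y, the other 4 libraries at most 0.0309 CPM, so sex moved with the replicate. Hepatocyte genes were high in all 6 libraries, with Alb at 60076 CPM or more. In replicates 2 and 3 the pericentral gene Glul was at 339 and 1050 CPM in Axin2-positive cells, against 46.9 and 119 CPM in Axin2-negative cells, and Cyp2e1 rose likewise (log2 fold change 1.70, SE 0.13; edgeR adjusted p = 0.00596). The periportal genes Cyp2f2 and Cdh1 fell (log2 fold changes of -7.23 and -7.00, SE 0.70 and 0.35; edgeR adjusted p of 0.00931 and 0.00304). In replicate 1 Glul, Cyp2f2 and Cdh1 were at 88.0, 1624 and 75.6 CPM in Axin2-positive cells. Their levels in Axin2-negative cells of replicate 1 were 87.9, 1653 and 73.5 CPM. With all 6 libraries, Cyp2e1, Cyp2f2 and Cdh1 each had an edgeR adjusted p of 0.999.

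Over all 6 libraries no member passed the test between Axin2-positive and Axin2-negative cells. The edgeR quasi-likelihood test called 0 of 12343 genes at an adjusted p under 0.05 (0%), so the count for the members says nothing particular about them. Without adjustment, 279 genes (2.26%) had a p under 0.05. DESeq2 and limma-voom also called 0 genes, with 432 (3.5%) and 238 (1.93%) at an unadjusted p under 0.05. With the replicate as a block the count was again 0, with 1132 (9.17%) at an unadjusted p under 0.05. The values below are therefore given by library, with the differences within each replicate. A fit of replicates 2 and 3 alone, blocked by replicate, is given beside them. It left out replicate 1 because that pair was known to show little difference, and it has 1 residual degree of freedom. It called 922 of 12385 genes (7.44%), 497 lower (4.01%) and 425 higher (3.43%), and of the 9 tested members 2 lower (Igfbp2 and Igfals) and 0 higher.

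**Figure D1:**
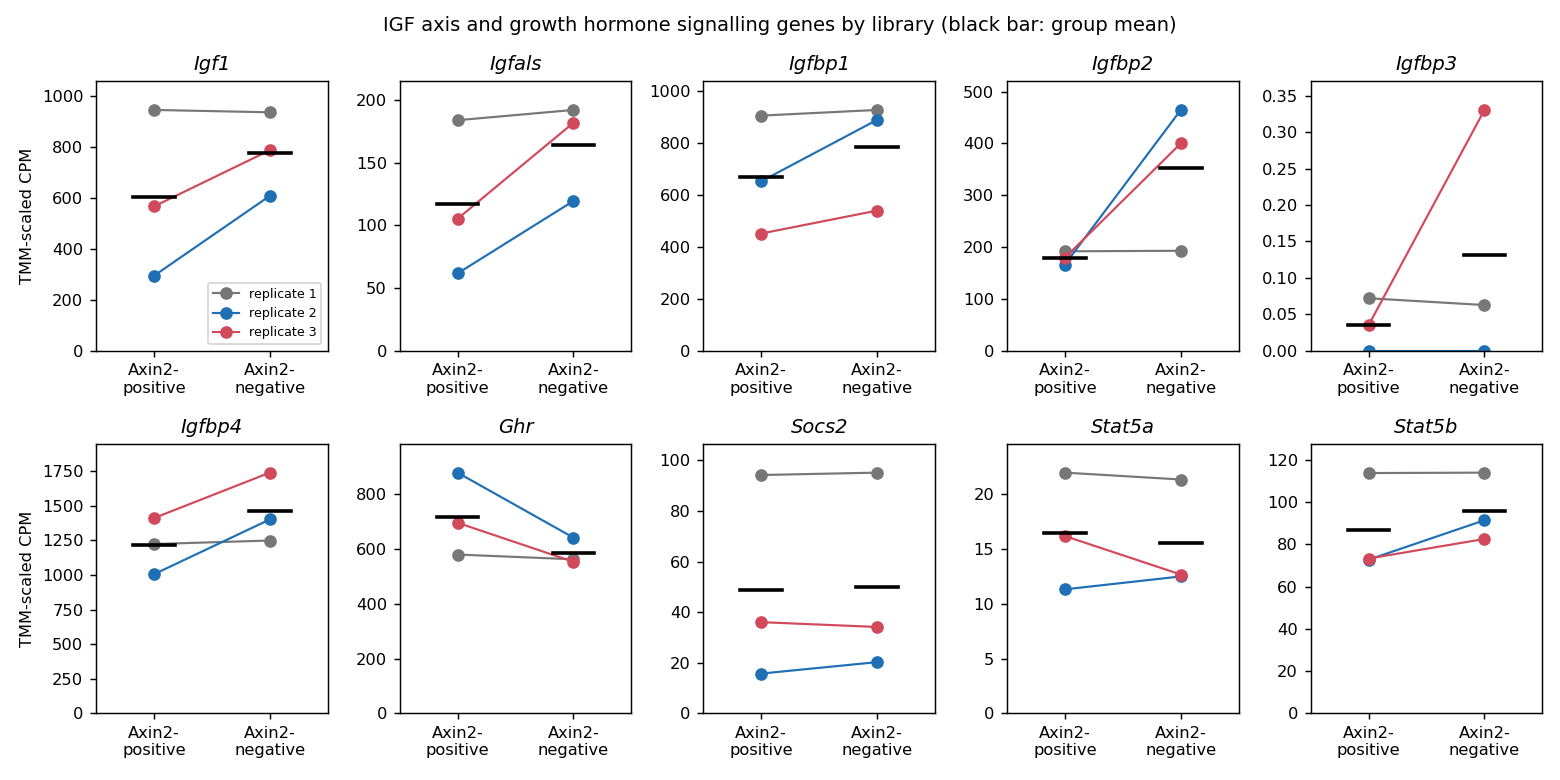
Each panel plots 1 gene in TMM-scaled CPM, with Axin2-positive libraries on the left and Axin2-negative libraries on the right. Points are libraries, lines join libraries of 1 replicate, and black bars are group means. Igfbp2 was at 166 and 179 CPM in Axin2-positive replicates 2 and 3 and at 465 and 400 CPM in their Axin2-negative partners, while the lines of replicate 1 are almost flat.

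The hormone gene Igf1 (chromosome 10, 87858265 to 87937042, GRCm38) was at 946, 294 and 566 CPM in Axin2-positive replicates 1, 2 and 3, against 936, 608 and 787 CPM in Axin2-negative replicates 1, 2 and 3. Replicate 1 was the highest in both groups, and the groups overlap over 6 libraries but not over replicates 2 and 3. In replicates 2 and 3, Axin2-positive cells held 48.3% and 72.0% of the level of their Axin2-negative partners, and in replicate 1 they held 101%. The log2 fold change was -0.37 (SE 0.43; edgeR adjusted p = 0.999), and -0.76 (SE 0.17; edgeR adjusted p = 0.0589) in replicates 2 and 3. It was -0.85 when the library labelled Axin2-positive 1 was dropped and -0.04 when Axin2-positive 2 was. In bulk libraries such as these, fewer cells of a type and less RNA per cell cannot be told apart.

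Igfals (chromosome 17, 24865997 to 24882010), which encodes the acid-labile subunit, was at 184, 61.6 and 105 CPM in Axin2-positive replicates 1, 2 and 3, against 192, 119 and 182 CPM in Axin2-negative replicates 1, 2 and 3. The Axin2-positive library was the lower of its pair in all 3 replicates, at 95.7%, 51.6% and 57.9% of its partner, and the groups overlap only through replicate 1. Its log2 difference was -0.06, -0.95 and -0.79 in replicates 1, 2 and 3. The log2 fold change was -0.49 (SE 0.42; edgeR adjusted p = 0.999) over 6 libraries. It came to -0.98 when the library labelled Axin2-positive 1 was dropped and to -0.19 when Axin2-positive 2 was. In replicates 2 and 3 Igfals fell in Axin2-positive cells (log2 fold change -0.87, SE 0.10; edgeR adjusted p = 0.0157), but it did not pass when tested against a fold of 1.5 (edgeR adjusted p = 0.149).

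Of the 9 tested members, Igfbp2 (chromosome 1, 72824503 to 72852474) had the most negative log2 fold change, over 6 libraries and in replicates 2 and 3. It was at 192, 166 and 179 CPM in Axin2-positive replicates 1, 2 and 3, against 193, 465 and 400 CPM in Axin2-negative replicates 1, 2 and 3. Its Axin2-positive libraries lay close together (179 ± 12.7 CPM, SD, n = 3), and its Axin2-negative libraries were spread (353 ± 142 CPM, SD, n = 3), with replicate 1 at the Axin2-positive level. The groups did not overlap, as for 3.77% of tested genes in this direction and 3.44% in the other, but in replicate 1 the gap was that of 192 against 193 CPM. The log2 fold change was -0.98 (SE 0.33; edgeR adjusted p = 0.999, unadjusted p = 0.0246). When only the library labelled Axin2-positive 1 was dropped it was -1.03, with an SE of 0.40, and Igfbp2 did not pass (edgeR adjusted p = 0.377). In replicates 2 and 3 Igfbp2 fell (log2 fold change -1.32, SE 0.13; edgeR adjusted p = 0.00931), also against a fold of 1.5 (edgeR adjusted p = 0.0332). That test called 1.68% of genes, 0.888% lower and 0.791% higher, and of the members 1 lower and 0 higher. Only 3.80% and 3.89% of tested genes had a lower difference in replicates 2 and 3.

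Igfbp1 (chromosome 11, 7197782 to 7202546), whose product is a short-lived carrier that insulin lowers, was at 907, 653 and 452 CPM in Axin2-positive replicates 1, 2 and 3, against 929, 890 and 540 CPM in Axin2-negative replicates 1, 2 and 3. The groups overlap, and replicate 3 was the lowest in each. Its log2 difference was -0.03, -0.45 and -0.26 in replicates 1, 2 and 3, with an edgeR adjusted p of 0.124 in replicates 2 and 3. Igfbp4 (chromosome 11, 99041244 to 99054392), the binding protein gene with the highest count, was at 1224, 1005 and 1411 CPM in Axin2-positive replicates 1, 2 and 3, against 1249, 1401 and 1740 CPM in Axin2-negative replicates 1, 2 and 3. Here too the groups overlap and each Axin2-positive library was below its partner, with log2 differences of -0.03, -0.48 and -0.30 and an edgeR adjusted p of 0.0900 in replicates 2 and 3.

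Igfbp3 (chromosome 11, 7206086 to 7213923) encodes the main carrier of IGF1 in blood and lies 3539 bases from Igfbp1 on the other strand, with no protein-coding gene between them. It had 7, 0 and 3 reads in Axin2-positive replicates 1, 2 and 3, against 6, 0 and 29 reads in Axin2-negative replicates 1, 2 and 3. It was thus almost unread beside a neighbour with 38861 to 88844 reads. The counts of 0 allow up to 0.0380 CPM in Axin2-positive 2 and 0.0373 CPM in Axin2-negative 2, counting error only. Of 20 endothelial marker genes in the same libraries, the summed level was 92.1, 4.71 and 96.2 CPM in Axin2-positive replicates 1, 2 and 3, against 91.6, 13.0 and 139 CPM in Axin2-negative replicates 1, 2 and 3. The library with 29 Igfbp3 reads thus also had the highest endothelial sum, and the 2 libraries with 0 reads the lowest, with Lyve1, Tek, Cdh5, Ramp2 and Rspo3 at 0 reads in Axin2-positive 2 and Ramp2, Wnt2 and Rspo3 at 0 in Axin2-negative 2. Their part in the Igfbp3 counts was not tested.

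The receptor gene Ghr (chromosome 15, 3317760 to 3583492) went the other way. It was at 580, 878 and 696 CPM in Axin2-positive replicates 1, 2 and 3, against 562, 641 and 553 CPM in Axin2-negative replicates 1, 2 and 3. The Axin2-positive library was the higher of its pair in 3 of 3 replicates, and over replicates 2 and 3 the groups did not overlap. Such a gap without overlap over replicates 2 and 3 was found for 19.9% of tested genes in the higher and 21% in the lower direction, and for 1 (Ghr) and 4 (Igf1, Igfals, Igfbp2 and Stat5b) of the 9 tested members. The log2 fold change was 0.29 (SE 0.19; edgeR adjusted p = 0.999), and 0.39 (SE 0.11; edgeR adjusted p = 0.0891) in replicates 2 and 3. Over 6 libraries it came to 0.12 when Axin2-positive 2 was dropped.

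Ghr is read as a full-length receptor and as a short form that becomes the soluble growth hormone binding protein. In the authors' deposited table, the transcript with 650 codons stood at 122 FPKM in Axin2-positive cells and 97.5 FPKM in Axin2-negative cells (p-value of 0.422). By the authors' deposited table, the transcript with 297 codons stood at 122 FPKM in Axin2-positive cells and 114 FPKM in Axin2-negative cells (p-value of 0.893). Neither form passed, and these values are 1 per group, with no spread over libraries.

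The transcription factor genes Stat5b (chromosome 11, 100780731 to 100850724) and Stat5a (chromosome 11, 100859351 to 100885169) are near-identical neighbours, 8626 bases apart on opposite strands, so reads may be split between them and their counts are uncertain. Stat5b was at 114, 72.7 and 73.2 CPM in Axin2-positive replicates 1, 2 and 3, against 114, 91.4 and 82.5 CPM in Axin2-negative replicates 1, 2 and 3, with an edgeR adjusted p of 0.175 in replicates 2 and 3. Stat5a was at 22.0, 11.3 and 16.2 CPM in Axin2-positive replicates 1, 2 and 3, against 21.3, 12.5 and 12.7 CPM in Axin2-negative replicates 1, 2 and 3. Its differences within replicates 2 and 3 had opposite signs, -0.14 and 0.35 on the log2 scale.

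Socs2 (chromosome 10, 95385362 to 95417180), a feedback inhibitor of the receptor and a target of STAT5, was at 94.2, 15.7 and 36.1 CPM in Axin2-positive replicates 1, 2 and 3, against 95.2, 20.3 and 34.2 CPM in Axin2-negative replicates 1, 2 and 3. It followed the replicate and not the sort: replicate 1 was the highest, replicate 2 the lowest, and the 2 libraries of a replicate lay close together. Its log2 difference was -0.01, -0.36 and 0.08 in replicates 1, 2 and 3, and its log2 fold change -0.03 (SE 0.81; edgeR adjusted p = 0.999). Both replicate 2 libraries lay below the other 4 for Socs2 and Stat5a, 2 of the 9 tested members, and for 17.2% of all tested genes. With 1 library per replicate and group, sex and other differences between replicates cannot be told apart.

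**Figure D2:**
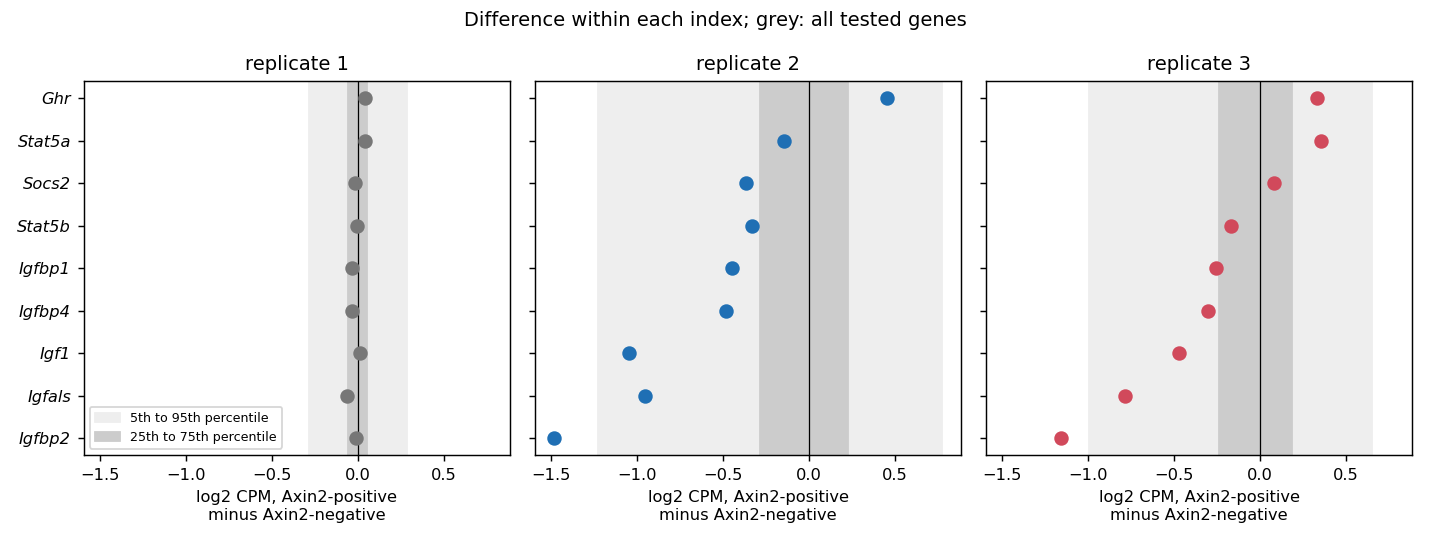
Points give the log2 CPM of the Axin2-positive minus the Axin2-negative library for the 9 tested members, 1 panel per replicate. Grey bands hold the middle 50% and 90% of all tested genes. In replicates 2 and 3 Igfbp2, Igfals and Igf1 lie farthest left (-1.48, -0.95 and -1.05 in replicate 2), Ghr lies to the right (0.45 and 0.33), and in replicate 1 all lie between -0.06 and 0.04.

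The members' median log2 difference was -0.01, -0.45 and -0.26 in replicates 1, 2 and 3, against 0.00, -0.01 and 0.00 for all tested genes. A negative median was not particular to the members: for 9 tested general hepatocyte genes it was -0.01, -0.21 and -0.27 in replicates 1, 2 and 3. Differences spread more widely over all genes in replicates 2 and 3 (SD 0.776 and 0.62) than in replicate 1 (SD 0.218), and each tested member other than Igfbp2 lay within the middle 90% of genes in each replicate. Per length, Igfbp4 led in the authors' deposited table, with 690 FPKM in Axin2-positive cells and 840 FPKM in Axin2-negative cells. Igfbp1 followed in the authors' deposited table at 533 FPKM in Axin2-positive cells and 609 FPKM in Axin2-negative cells. Igf1, with its 5 transcripts of the authors' deposited table summed, stood at 139 FPKM in Axin2-positive cells and 170 FPKM in Axin2-negative cells. Igfbp2 had 197 FPKM in Axin2-positive cells and 389 FPKM in Axin2-negative cells (p = 0.00155 and q = 0.160 in the authors' deposited table), so it ranked below Ghr in Axin2-positive cells (246 FPKM summed) and above it in Axin2-negative cells (213 FPKM summed).

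Other genes of the pathway were read from fixed lists, in which 0 genes were called over 6 libraries. In the fit of replicates 2 and 3, of 8 tested ligand, receptor and docking genes 2 were called higher and 0 lower. The share of all genes called in that fit was 3.43% higher and 4.01% lower. Irs1, an adaptor of the insulin and IGF1 receptors, rose in Axin2-positive cells (log2 fold change 0.96, SE 0.09; edgeR adjusted p = 0.00835). It was at 22.7, 62.6 and 63.3 CPM in Axin2-positive replicates 1, 2 and 3, against 21.7, 30.6 and 34.3 CPM in Axin2-negative replicates 1, 2 and 3. Igf2r, which clears IGF2, rose by 0.48 (SE 0.09; edgeR adjusted p = 0.0403). Grb10, an adaptor that inhibits these receptors, had a log2 fold change of -1.30 (SE 0.30; edgeR adjusted p = 0.0659). The IGF1 receptor gene Igf1r was at 0.0498 to 0.205 CPM and Igf2 at 0.0456 to 0.0760 CPM over the 6 libraries, while the insulin receptor gene Insr was at 121 to 177 CPM. Of the 6 genes in the table for binding protein proteases, which release IGF1 from its carriers, and for their inhibitors, only Adam9 was tested in replicates 2 and 3, and it was not called. Adam9 was at 91.6 to 104 CPM over the 6 libraries, and Htra1 at 0.0233 to 0.473 CPM.

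Of 6 tested binding protein genes and Igfals, 3 were called lower and 0 higher in replicates 2 and 3: Igfbp2, Igfals and Igfbp5. Over all genes, that fit called 4.01% lower and 3.43% higher. Igfbp5, which lies 5457 bases from Igfbp2 on the other strand, was at 8.05, 1.17 and 4.15 CPM in Axin2-positive replicates 1, 2 and 3, against 8.81, 3.57 and 11.1 CPM in Axin2-negative replicates 1, 2 and 3 (log2 fold change in replicates 2 and 3 of -1.51, SE 0.17; edgeR adjusted p = 0.0130). Igfbp7, also made by endothelial cells, was at 4.54, 0.0887 and 4.79 CPM in Axin2-positive replicates 1, 2 and 3, against 4.39, 0.361 and 7.19 CPM in Axin2-negative replicates 1, 2 and 3. Both genes are lowest in replicate 2, where the endothelial sum is lowest too, and the part of these cells was not tested. Of 14 Kupffer cell genes, the summed level was 35.1, 96.4 and 44.7 CPM in Axin2-positive replicates 1, 2 and 3, against 34.9, 107 and 75.2 CPM in Axin2-negative replicates 1, 2 and 3, most of it from Mpeg1, with Marco, C1qb and Folr2 at 0 reads in Axin2-positive 2. The fit of replicates 2 and 3 called 8 of 12 tested Kupffer genes lower, and their part in the members' differences was not tested. Stellate cell genes summed to 0.304 to 6.89 CPM in Axin2-positive and 1.03 to 8.20 CPM in Axin2-negative libraries, with Col1a1 at 0 reads in 5 of the 6. Bile duct genes summed to 15.0 to 34.8 CPM in Axin2-positive and 22.7 to 35.6 CPM in Axin2-negative libraries, with Cftr at 0 reads in 5 of the 6. Blood cell genes, almost all of them Alas2, summed to 16.4, 191 and 26.9 CPM in Axin2-positive replicates 1, 2 and 3, against 15.8, 200 and 16.6 CPM in Axin2-negative replicates 1, 2 and 3, and lymphocyte genes to at most 0.502 CPM.

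Of 16 tested genes of growth hormone receptor signalling and feedback, 1 was called lower and 0 higher in replicates 2 and 3. Over all genes, that fit called 4.01% lower and 3.43% higher. Cish, a STAT5 target that inhibits cytokine receptors, fell (log2 fold change -0.68, SE 0.08; edgeR adjusted p = 0.0163), and was at 64.3, 41.0 and 14.1 CPM in Axin2-positive replicates 1, 2 and 3, against 66.0, 65.8 and 22.4 CPM in Axin2-negative replicates 1, 2 and 3. Jak2, the kinase of the receptor, was at 16.4 to 20.3 CPM in all 6 libraries. The phosphatase genes Ptpn2 and Ptpn6 had edgeR adjusted p of 0.152 and 0.264 and log2 fold changes of 0.28 (SE 0.10) and -0.20 (SE 0.10). Of 15 liver target genes of growth hormone and STAT5, 3 were called lower (Igfals, Cish and Cux2) and 0 higher. Cux2, at 0 CPM in both libraries of replicate 2, was at 6.12 CPM in Axin2-positive 3 against 35.0 CPM in Axin2-negative 3, so its call rests on replicate 3. Of 16 genes that respond to insulin or fasting, 6 were called lower and 0 higher, among them the gluconeogenesis genes Pck1 (log2 fold change -0.98, SE 0.14; edgeR adjusted p = 0.0247) and G6pc (-0.66, SE 0.10; edgeR adjusted p = 0.0282). The list also holds Igfbp1, and its median was -0.43 in replicates 2 and 3, against 0.00 for all genes in that fit. Pck1 is also a periportal gene, and of 16 tested periportal genes the same fit called 14 lower.

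**Figure D3:**
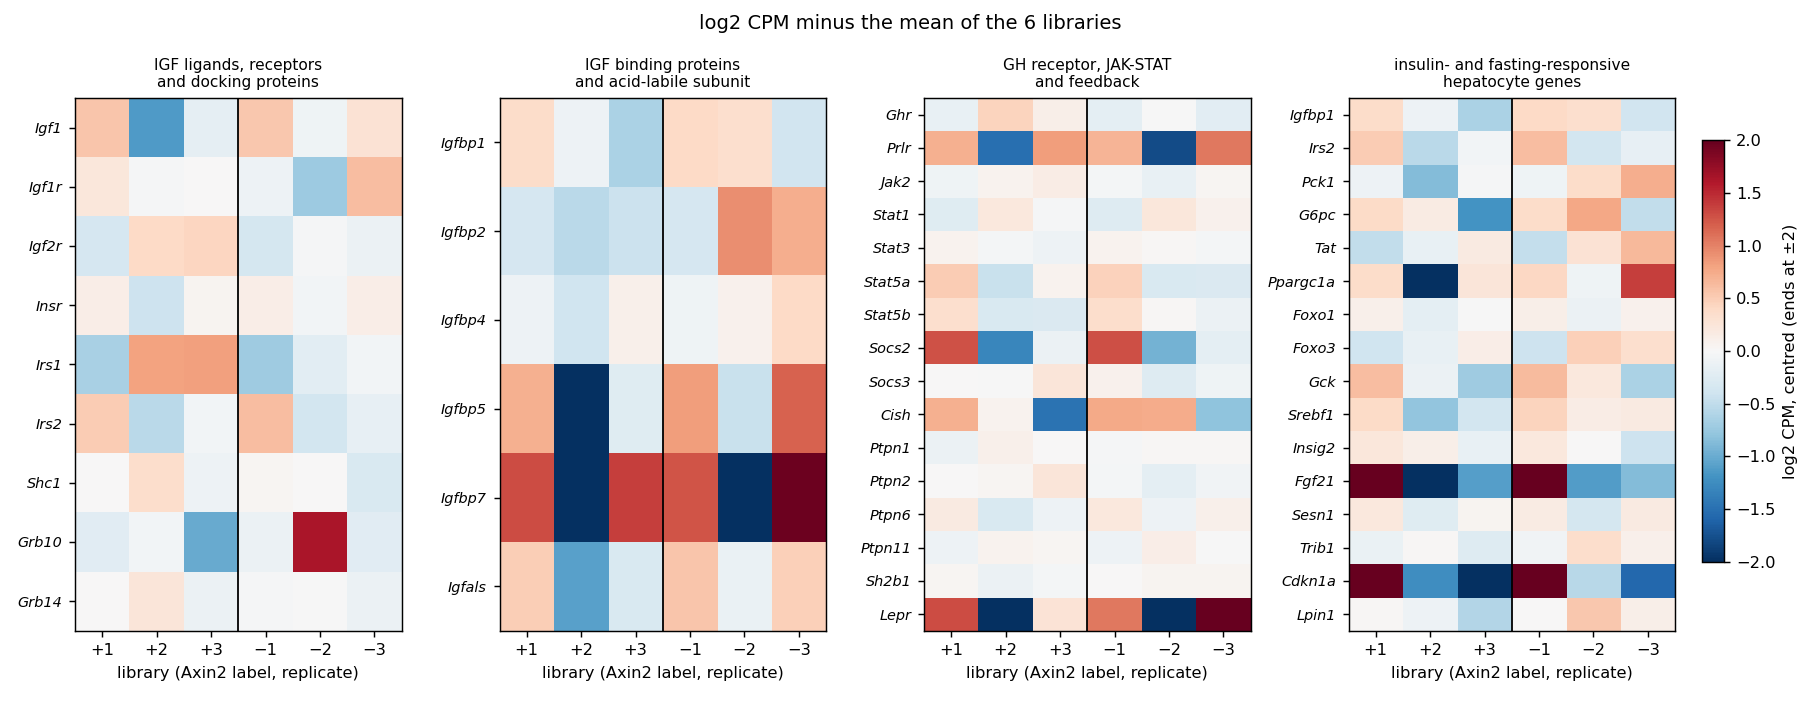
Colour gives log2 CPM minus the mean of the 6 libraries (red higher, blue lower, ends at ±2), for tested genes in rows and libraries in columns, Axin2-positive (+) on the left and Axin2-negative (−) on the right. Igfbp2 is blue in all columns but Axin2-negative 2 and 3 (465 and 400 CPM), Irs1 is red in Axin2-positive 2 and 3 (62.6 and 63.3 CPM), and Socs2 and Prlr are blue in both columns of replicate 2 (15.7 and 20.3 CPM of Socs2).

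The sex-biased target genes of growth hormone separated replicate 2 from the others. Of 24 tested male-biased genes, 19 had both replicate 2 libraries above the other 4 (14.9% of all tested genes), and of 29 tested female-biased genes, 28 had both below (17.2% of all tested genes). The 25 male-biased genes of the table summed to 17797, 37514 and 9388 CPM in Axin2-positive replicates 1, 2 and 3, against 18010, 40872 and 7980 CPM in Axin2-negative replicates 1, 2 and 3. Much of the replicate 1 sums came from Serpina3k, which was highest in replicate 1. Serpina3k was at 11383, 7064 and 3793 CPM in Axin2-positive replicates 1, 2 and 3, against 11434, 6820 and 3853 CPM in Axin2-negative replicates 1, 2 and 3. The 29 female-biased genes summed to 6076, 182 and 8073 CPM in Axin2-positive replicates 1, 2 and 3, against 6148, 126 and 7668 CPM in Axin2-negative replicates 1, 2 and 3. Prlr, the prolactin receptor gene, which signals through the same STAT5 proteins, was at 541, 117 and 586 CPM in Axin2-positive replicates 1, 2 and 3, against 529, 95.7 and 687 CPM in Axin2-negative replicates 1, 2 and 3. These lists include the Mup, Cyp2c, Cyp3a and Sult2a families of near-identical genes, whose counts are uncertain. Of the 9 tested members, 0 had both replicate 2 libraries above the other 4, and 2 had both below (Socs2 and Stat5a). Igf1 and Igfals were also lowest in replicate 2 within each group, and Ghr highest. Their replicate 2 libraries did not both lie beyond the other 4.

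**Figure D4:**
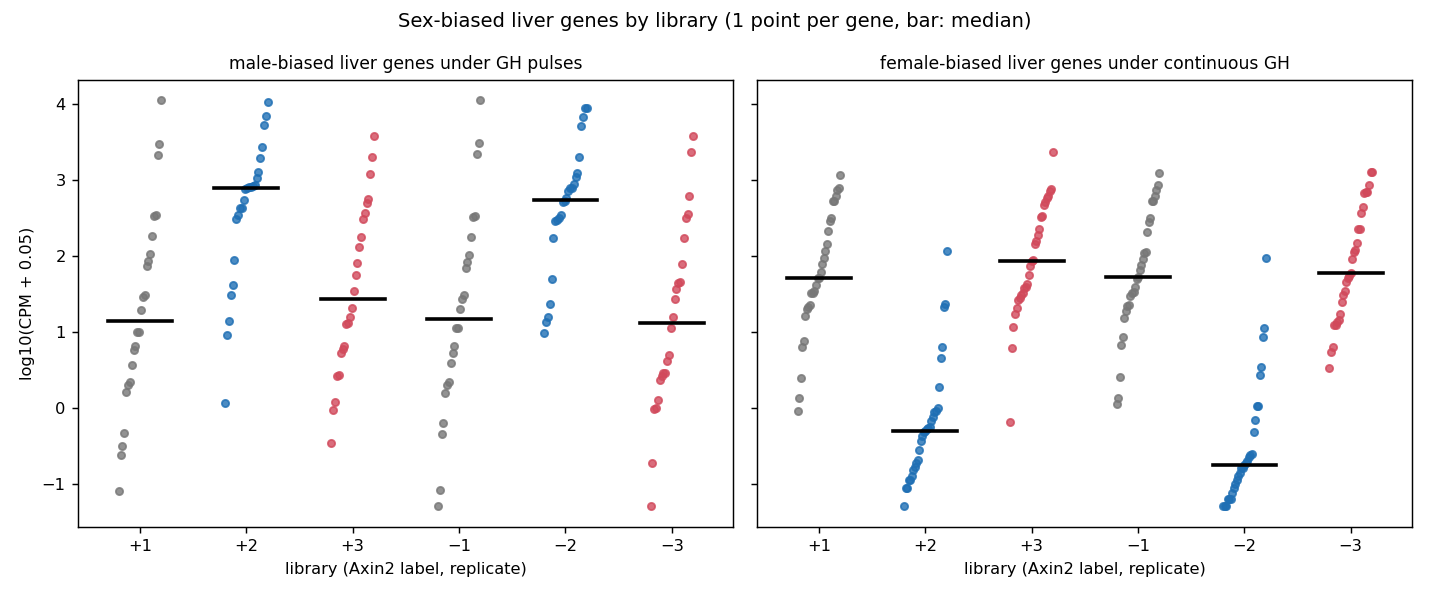
Points are genes, at log10(CPM + 0.05), by library, with Axin2-positive (+) on the left of each panel and Axin2-negative (−) on the right, and bars are medians. The replicate 2 columns stand above the others for male-biased genes (sums of 37514 and 40872 CPM) and below them for female-biased genes (sums of 182 and 126 CPM), in both groups.

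The genes with the profile most like a member were found by the root mean square difference of log2 CPM, centred on the mean of the 6 libraries. For Ghr these were B2m (0.0253), Trmt6 (0.0318) and Tbcb (0.0340), where the median over tested genes was 0.311. For Igf1 they were Rgs12 (0.0736), Vill (0.0852) and Zfp882 (0.0879), with a median of 0.624. For Igfbp2 they were AI428936 (0.0976), Lgals1 (0.164) and Zfhx2 (0.210), with a median of 0.644. For Socs2 they were Icosl (0.189), Flrt1 (0.199) and Gm6484 (0.236), with a median of 1.02. Vill and Icosl stayed under 0.5 CPM in all 6 libraries, and the 6 libraries share their replicates, so likeness over them mixes replicate and sort.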

How the data were processed

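Per the labels, messenger RNA of 6 sorted hepatocyte libraries was sequenced. One table deposited by the authors holds raw counts per gene symbol, as whole numbers. The submitters' processing notes name TopHat2 2.0.11, Cuffdiff 2.2.2 and build mm10; how reads were counted, and whether by strand, is not given in the sources used here. A second table deposited by the authors lists FPKM of each transcript as 1 value a group, with a p-value and a q-value. Groups were read from the titles, and libraries with the same index were given the same replicate number. Deviations from group means correlated at 0.683, 0.819 and 0.755 between libraries of 1 index, each above 0.1, so the index was taken to pair them. Across different indices the highest value was 0.137, which is also above 0.1, so that cut alone does not separate pairs from other libraries.

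The test on counts was that of edgeR 4.0.16, run in R 4.3.3 (default filter, TMM, quasi-likelihood F test, group only), adjusted by Benjamini-Hochberg over all genes tested, threshold 0.05. SE is the log2 fold change over the root of F. CPM use TMM-scaled totals, and differences within a replicate an offset of 0.05 CPM. Alternatives were DESeq2 1.42.0, limma-voom 3.58.1, other scalings, no filter, the replicate block, each library left out, pairs of replicates, and a test against a fold of 1.5. The code was run on simulated counts that held no replicate effect, no sex effect and no library against its label. That check therefore says nothing about these features of the data. Coordinates are from GENCODE M21 (GRCm38, the build of mm10), and each overlapped the authors' locus. Named genes were the members, the genes that check the sort (Axin2, Glul, Cyp2e1, Cyp2f2 and Cdh1), up to 3 other genes per list with the lowest p in the blocked fit, and the most alike profiles; others named were chosen after their values were seen. The members and lists were chosen with earlier results of these data known.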

Additional observations from a re-analysis of the deposited data

How the results depend on the processing

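No member passed the threshold over 6 libraries under edgeR with RLE size factors or library totals alone, without the filter, with DESeq2, with limma-voom or with the replicate block, and none reversed its direction there. The replicate block changed no call. Genes called higher and lower numbered 0 to 1 and 0 to 5 when 1 library was left out, the 1 and the 5 both when the library labelled Axin2-positive 1 was dropped. In the blocked fit of replicates 2 and 3 they numbered 425 and 497, and 98 and 110 against a fold of 1.5. Blocked fits of replicates 1 and 3 or of replicates 1 and 2 called 0 genes. Of 144 log2 fold changes of members under alternatives, 133 kept direction and side of the threshold, 3 passed it (Igfals and Igfbp2 in replicates 2 and 3) and 8 reversed. Leaving out 1 library gave -0.95 to 0.84 for Socs2 and -0.17 to 0.39 for Stat5a, which changed sign, and -0.51 to -0.01 for Igfbp1, -0.39 to -0.12 for Igfbp4, -0.40 to -0.01 for Stat5b, -1.27 to -0.73 for Igfbp2 and 0.12 to 0.42 for Ghr, which did not. Socs2 was 0.032 in the blocked fit without replicate 2, and Stat5a -0.049 in the blocked fit without replicate 3, and the cause was not tested. An offset of 0.5 CPM left each difference of a tested member within its spread over replicates. Depth limits only Igfbp3, with at most 29 reads. The fits of 2 pairs rest on 1 residual degree of freedom, and the choice of replicates 2 and 3 followed from known results.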

Other observations

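Within the sex-biased lists, the blocked fit of replicates 2 and 3 called 7 of 29 female-biased genes higher and 6 lower in Axin2-positive cells, so the list did not move one way. Over all genes, that fit called 3.43% higher and 4.01% lower. The female-biased list summed to 182 and 126 CPM in replicate 2, against 8073 and 7668 CPM in replicate 3 (Axin2-positive and Axin2-negative). Calls of genes with few reads in replicate 2 can thus lean on replicate 3. Cyp3a41a, a female-biased cytochrome P450 gene, was at 145, 0.139 and 778 CPM in Axin2-positive replicates 1, 2 and 3, against 115, 0.0124 and 120 CPM in Axin2-negative replicates 1, 2 and 3, and was called higher (log2 fold change 2.73, SE 0.16; edgeR adjusted p = 0.00458). In replicate 2 Cyp3a41a had only 11 reads in Axin2-positive and 1 in Axin2-negative cells, so its call rests mostly on replicate 3. Cyp3a44, of the same female-biased list, rose too (log2 fold change 1.89, SE 0.14; edgeR adjusted p = 0.00559). It was at 0.937 against 0.187 CPM in replicate 2 (74 and 15 reads) and at 190 against 54.7 CPM in replicate 3. Cyp17a1, a steroid hydroxylase gene, was at 51.4, 0.836 and 17.4 CPM in Axin2-positive replicates 1, 2 and 3, against 52.8, 8.60 and 226 CPM in Axin2-negative replicates 1, 2 and 3, and was called lower (log2 fold change -3.58, SE 0.12; edgeR adjusted p = 0.00165). Its log2 difference was -3.29 in replicate 2 and -3.70 in replicate 3. Of 25 tested male-biased genes, 2 were called higher and 2 lower. Susd4 rose (log2 fold change 1.08, SE 0.17; edgeR adjusted p = 0.0315) and C4a, a complement gene, fell (-0.91, SE 0.09; edgeR adjusted p = 0.0101). Against a fold of 1.5, 1 male-biased gene was called higher and 0 lower. Susd4 and C4a did not pass that test (edgeR adjusted p of 0.172 and 0.0841). Ugt2b1, a male-biased glucuronosyltransferase gene, was at 334, 2784 and 1221 CPM in Axin2-positive replicates 1, 2 and 3, against 327, 1121 and 359 CPM in Axin2-negative replicates 1, 2 and 3 (log2 fold change 1.54, SE 0.14; edgeR adjusted p = 0.00850).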
